A study of Mus musculus with 9 samples.

Results

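Cells recognise foreign or misplaced nucleic acid with receptors in the cytosol and in endosomes, and 9 genes of this system were followed in mouse bone marrow-derived macrophages (BMMs). They were Ifih1, Dhx58, Zbp1 and Eif2ak2, which encode cytosolic sensors, the adaptor gene Mavs, and the endosomal Toll-like receptor (TLR) genes Tlr3, Tlr7, Tlr9 and Tlr13. They were picked by name from the 51826 rows of a table of raw counts per gene symbol, and each was found on 1 row. All 9 were among the 15429 genes that had enough counts to be tested.

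The series had 3 groups of 3 libraries. Control was untreated BMMs, CM was BMMs given medium conditioned by K7M2 cells for 48 h, and CM plus DTM was BMMs given that medium together with DTM for 48 h. K7M2 is an osteosarcoma line of the mouse, whose conditioned medium holds the factors its cells have secreted. What DTM is stays unsaid in the labels, which state no strain, age or dose and give neither a culture time nor a medium for control. There was no group with DTM alone, so DTM was seen only on top of CM. No label ties the 3 libraries of a group to different cultures or animals, and the p-values therefore measure the spread between libraries, be it technical or biological. The cells were measured in bulk, where fewer cells of a type and less RNA per cell cannot be told apart.

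Ifih1 encodes MDA5, a helicase that binds long double-stranded RNA, and Dhx58 encodes LGP2, a related helicase that lacks the signalling domains and modulates MDA5. MDA5 signals through MAVS, an adaptor on the outer mitochondrial membrane, and the pathway ends in transcription of type I interferon genes. Zbp1 encodes a sensor of left-handed (Z-form) nucleic acid that can start necroptosis, a lytic cell death. Eif2ak2 encodes PKR, a kinase that binds double-stranded RNA and stops translation by phosphorylating the initiation factor eIF2α. In endosomes TLR3 binds double-stranded RNA, TLR7 single-stranded RNA, TLR9 DNA with unmethylated CpG, and TLR13, a receptor of the mouse, bacterial ribosomal RNA. Genes of the cytosolic sensors are known as interferon-inducible.

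Promoter sequence bears on genes of this kind because interferon-activated factors bind a repeated GAAA-type motif. RefSeq's promoter table (GRCm38.p6, 250 bases before to 50 bases after each start) held windows for 6 of the 9 genes, namely Ifih1, Eif2ak2, Mavs, Tlr3, Tlr9 and Tlr13. The motif AAANNGAAA, a pair of half-sites of interferon regulatory factors, was searched on both strands. Its letters were settled after the windows of these genes had been seen. It occurred in 3 of the 6 windows and in 10.6% of all 32851 windows of that length. The 30 bases around each match are shown on the strand of the gene, with the matched bases in capitals, because they are where the letters of the genes can be set side by side.
Eif2ak2, chr17:78882534-78882563, minus strand: gtccgccgggAAAACGAAAcagaagagaac
Ifih1, chr2:62646206-62646235, minus strand: gagaagagaatcgAAACAGAAAccgatctg
Tlr3, chr8:45410420-45410449, minus strand: agtgaatggcTTTCACTTTgtttagacaca
The match began 20 bases after the start in Eif2ak2 and 34 bases after it in Ifih1. In Tlr3 it lay 59 bases before the start on the opposite strand. The motif TTCNNNGAA, the form bound by STAT factors, was found in 1 of the 6 windows, that of Eif2ak2, 178 bases before the start, and in 8.30% of all windows. Neither motif was found in the windows of Mavs, Tlr9 and Tlr13. These matches describe letters in a window and are no evidence of binding.

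Levels are given as CPM, read counts per 1e6 of a library size scaled by TMM (a factor per library that offsets differences in composition), as mean ± SD with n = 3. A gene was called where edgeR's quasi-likelihood test gave a Benjamini-Hochberg adjusted p under 0.05 over all genes tested, and "rose" and "fell" are used only of such genes. Fold changes are log2 values, each given with its standard error (SE). The libraries held 43084296 to 50407973 counts. Library 1 of CM and library 1 of CM plus DTM stood apart from the rest of their groups. In CM, library 1 correlated with the others at 0.940 and 0.939 in log2 CPM and these with each other at 0.985, and for CM plus DTM the values were 0.919 and 0.936 against 0.979. Results are therefore also given without both. The summed CPM of 10 macrophage identity genes was 26456 to 46689 in control, 36488 to 37912 in CM and 32147 to 43525 in CM plus DTM, most of it from Lyz2. Single markers moved apart, since Fcgr1 (194 ± 68.3 to 695 ± 323 CPM) and Mertk (50.2 ± 5.09 to 86.3 ± 16.8 CPM) rose in CM, while Csf1r went from 2262 ± 403 to 1407 ± 105.4 CPM (adjusted p = 0.0586). Itgam, on the row with more counts of the 2 that carry its name, had 278 ± 49.5, 983 ± 335 and 179 ± 145.8 CPM in control, CM and CM plus DTM, with no call. Among markers of plasmacytoid dendritic cells and B cells, which are rich in TLR7 and TLR9, Klk1, Pax5 and Blk had no count and Siglech and Ms4a1 had at most 2 counts in any library, but Tcf4, Cox6a2, Ebf1 and Cd79b were read. The comparison of CM with control asked what the tumour cell medium changed, and that of CM plus DTM with CM what DTM changed on top of it.

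In CM the 4 cytosolic sensor genes rose, while the adaptor gene Mavs and the 4 endosomal receptor genes were not called. Zbp1 changed most, from 6.79 ± 1.74 to 100.4 ± 25.2 CPM, and Dhx58 and Eif2ak2 least, from 34.6 ± 4.44 to 117 ± 16.5 CPM and from 10.6 ± 2.34 to 37.0 ± 5.02 CPM. Of the 9 genes, 4 rose (44.4%) and none fell, where 4.04% of all genes tested rose and 1.57% fell. CM and control did not overlap for 7 of the 9 (77.8%), against 36.7% of all genes. The median log2 fold change of the 9 was 1.45, and that of all genes -0.01.

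Ifih1 stood at 7.05, 9.26 and 9.71 CPM in the control libraries and at 53.7, 50.7 and 43.1 CPM in the CM libraries. Every CM library was far above every control library. The mean went from 8.67 ± 1.42 to 49.1 ± 5.48 CPM, a log2 fold change of 2.502 (SE 0.31, adjusted p = 0.00294). Dhx58 was already abundant in control, at 39.5, 33.7 and 30.8 CPM, and reached 99.2, 131 and 122 CPM in CM. Its groups did not overlap either, and it rose by 1.76 on the log2 scale (SE 0.18, adjusted p = 0.00159). The annotated antisense gene of Dhx58, Dhx58os, had 3 to 16 counts per library, where Dhx58 itself had 1511 to 5625.

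Zbp1 had the highest fold change of the 9 in CM. Control libraries had 4.92, 7.09 and 8.37 CPM and CM libraries 71.4, 113 and 117 CPM, and library 1 of CM was the lowest of its group. The log2 fold change was 3.88 (SE 0.54, adjusted p = 0.00515). Eif2ak2 stood at 7.92, 12.1 and 11.8 CPM in control and at 33.1, 42.7 and 35.3 CPM in CM, with no overlap. It rose by 1.80 on the log2 scale (SE 0.25, adjusted p = 0.00515). Gm26637, an annotated gene on the strand opposite Eif2ak2, had 34 to 104 counts per library. All 4 sensor genes were called under each of 19 alternative settings, with log2 fold changes of 2.30 to 2.59 for Ifih1, 1.57 to 1.90 for Dhx58, 3.67 to 4.11 for Zbp1 and 1.59 to 1.91 for Eif2ak2.

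Mavs was nearly flat. Its control libraries had 56.6, 57.3 and 60.2 CPM and its CM libraries 61.0, 62.3 and 63.2 CPM. The groups were just apart, yet the difference was 0.10 on the log2 scale (SE 0.13, adjusted p = 0.716), and it turned to -0.10 with total count scaling. That scaling moved the median of all genes from -0.01 to -0.21, so relative to the median gene Mavs was above in both.

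**Figure D1:**
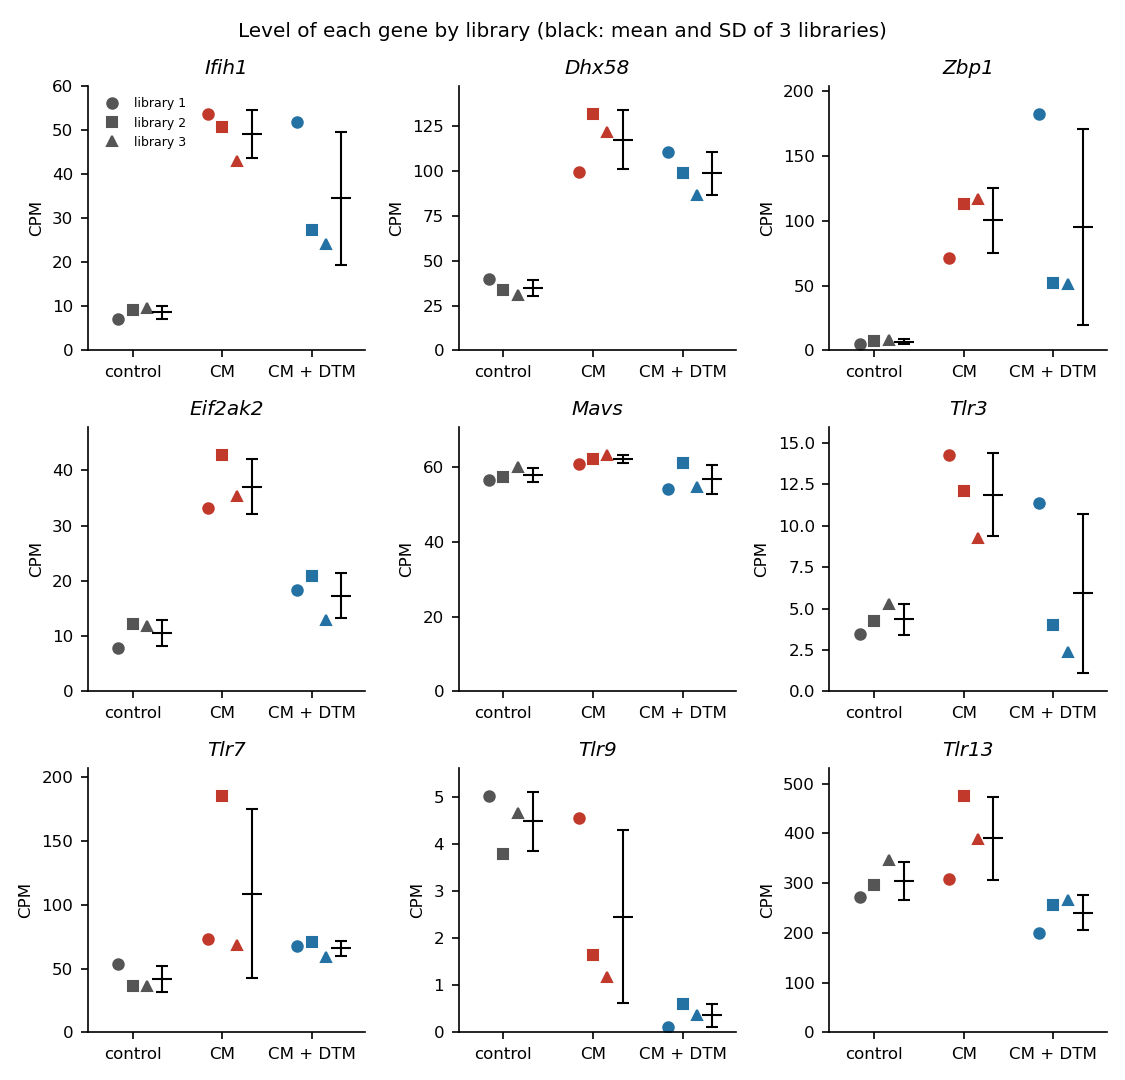
Level of each of the 9 genes in CPM (vertical axes from 0, 1 panel per gene) in the 3 libraries of control, CM and CM plus DTM; marker shape gives the library number and the black bar the mean and SD. The 4 cytosolic sensor genes have every CM library above every control library, Mavs stays between 54.3 and 63.2 CPM, and Tlr9 is lowest in CM plus DTM.

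Among the endosomal receptors, Tlr3 stood at 3.46, 4.27 and 5.29 CPM in control and at 14.2, 12.1 and 9.27 CPM in CM. All CM libraries were above all control libraries. The log2 fold change of 1.45 (SE 0.51) was not called (adjusted p = 0.141). In the fit of control and CM alone, which leaves out the spread of the CM plus DTM libraries, the adjusted p was 0.0181. Over all alternatives it ran from 0.0148 to 0.369. Tlr7 had 53.7, 36.1 and 36.0 CPM in control and 72.8, 185 and 68.2 CPM in CM, with library 2 of CM far above the others of its group. Its log2 fold change was 1.37 (SE 0.37, adjusted p = 0.0681), and 0.76 without library 2 of CM.

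Tlr9 was low throughout, with 217 to 254 counts per control library. It stood at 5.02, 3.80 and 4.66 CPM in control and at 4.56, 1.64 and 1.17 CPM in CM. Library 1 of CM lay within the control range and the other CM libraries below it, so the groups overlapped and the log2 fold change of -0.87 (SE 0.61) was not called (adjusted p = 0.454). Tlr13 was the most abundant of the 9 in CPM, at 272, 297 and 347 CPM in control and 308, 475 and 388 CPM in CM. These groups overlapped, and the log2 fold change was 0.35 (SE 0.20, adjusted p = 0.345).

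Without library 1 of CM and library 1 of CM plus DTM, 7 of the 9 genes rose and 1 fell in CM, where 9.62% of all genes rose and 6.41% fell. That fit has 1 CM library fewer, and the libraries left out were picked because they stood apart in these same data. The 4 sensor genes stayed called, at log2 fold changes of 2.47 for Ifih1, 1.90 for Dhx58, 4.11 for Zbp1 and 1.91 for Eif2ak2. In that fit Tlr3 was at 1.33 (adjusted p = 0.0171), Tlr7 at 1.63 (adjusted p = 0.0234) and Tlr13 at 0.53 (adjusted p = 0.0418). Tlr9 was at -1.64 (adjusted p = 0.0102) and Mavs at 0.15 (adjusted p = 0.428). The summed CPM of 8 B cell markers was 4.70 to 6.86 in control and 0.988 to 4.53 in CM, and that of 10 plasmacytoid dendritic cell markers was 14.1 to 14.4 and 12.1 to 29.8, most of it from Tcf4 and Cox6a2. Library 1 of CM, with the highest Tlr9 of its group, had the lowest B cell sum and the highest plasmacytoid sum. In that library Cox6a2 had 14.3 CPM, against 0.724 and 0.819 in the other CM libraries, and Tcf4 had 15.3 against 11.9 and 11.3 CPM. Of the other plasmacytoid markers, Siglech, Klk1, Pacsin1, Ly6d and Cd209d had 0 counts there, Spib 2, Ccr9 3 and Lag3 4. The B cell marker Cd79b had 2.45, 4.24 and 4.01 CPM in control, 0.53, 1.19 and 1.35 CPM in CM and 0.89, 2.43 and 1.78 CPM in CM plus DTM, so that CM was apart from control (log2 fold change -1.80, SE 0.49, adjusted p = 0.0665). The part of these cells in the levels of Tlr9 and Tlr7 was not tested.

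**Figure D2:**
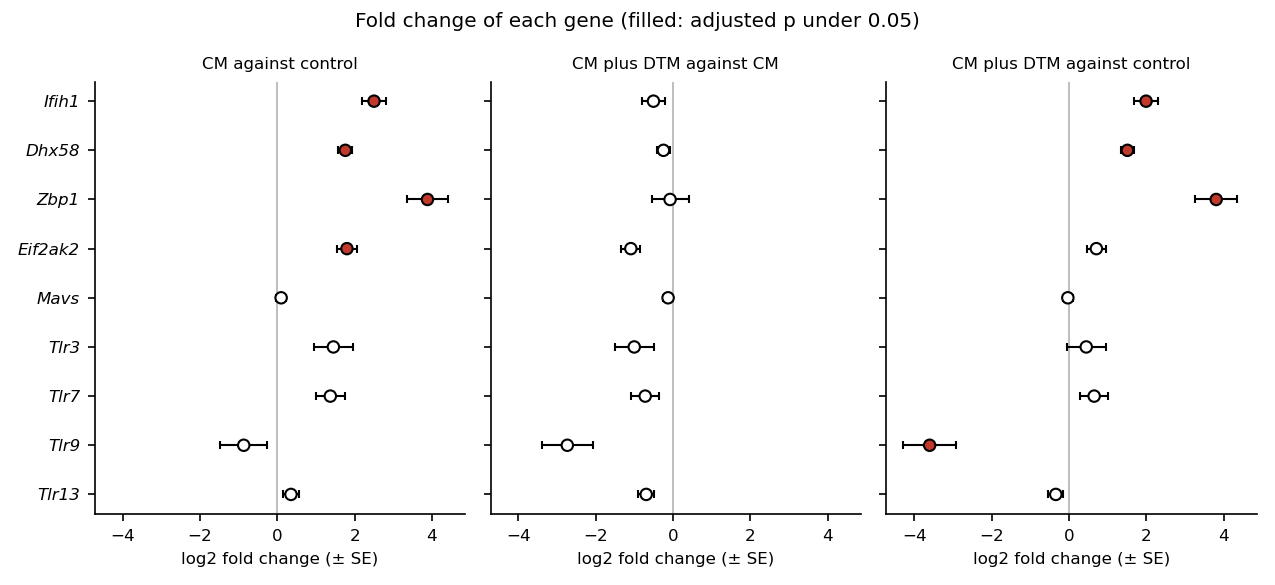
Log2 fold change of each gene (horizontal axis, bars show ± SE) in the 3 comparisons; filled points have an adjusted p under 0.05. In CM against control 4 points are filled, in CM plus DTM against CM none is and all 9 lie below 0, and in CM plus DTM against control Ifih1, Dhx58 and Zbp1 are filled above 0 and Tlr9 below.

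With DTM added to CM, no gene of the 9 was called, and edgeR called none of all genes tested either (0%). All 9 log2 fold changes were below 0, with a median of -0.70 against -0.03 over all genes. At an unadjusted p under 0.05 stood 3 of the 9 (Eif2ak2, Tlr9 and Tlr13) and 28.3% of all genes (4372). The groups were apart for the same 3 (33.3%), against 34.4% of all genes, so the share of the 9 was close to the background. DESeq2 called these 3 as lower, where it called 8.69% of all genes lower.

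Eif2ak2 went from 33.1, 42.7 and 35.3 CPM in CM to 18.3, 20.9 and 12.9 CPM in CM plus DTM. The highest library with DTM was below the lowest without it. The log2 fold change was -1.09 (SE 0.25, adjusted p = 0.0611), and it stood between -1.26 and -0.91 over the alternatives, where its adjusted p ran from 0.0022 (DESeq2) to 0.151. Tlr13 went from 308, 475 and 388 to 201, 256 and 265 CPM, also without overlap, a log2 fold change of -0.70 (SE 0.20, adjusted p = 0.0725). By DESeq2 its adjusted p was 0.0189, and the alternatives ran from there to 0.200.

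Tlr9 was nearly gone in CM plus DTM, with 4, 29 and 17 counts, or 0.108, 0.613 and 0.365 CPM. The CM libraries had 231, 70 and 53 counts. The log2 fold change of -2.74 (SE 0.66) missed the threshold (adjusted p = 0.0613). DESeq2 gave an adjusted p of 0.000744, and the alternatives ran from there to 0.15. Library 1 of CM, the highest of its group, moved this value most, since without it the log2 fold change was -1.93. Without library 2 of CM plus DTM it was -3.33 (adjusted p = 0.0347), and in that fit 2 of the 9 genes were called lower, Tlr9 and Eif2ak2, where 4.71% of all genes were.

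The other sensors split by library within CM plus DTM. Zbp1 had 182, 51.9 and 51.1 CPM there, so library 1 was above every CM library and the others below every CM library. The mean of 95.0 ± 75.4 CPM thus matched no library, and the log2 fold change of -0.08 (SE 0.48, adjusted p = 0.935) changed sign with the library left out. It was 0.23 and 0.24 without library 2 and library 3 of CM plus DTM, 0.02 and 0.06 without library 2 and library 3 of CM, and -1.01 without library 1 of CM plus DTM. Ifih1 followed the same order, with 51.9, 27.4 and 24.3 CPM, the first inside the range of CM and the others below it (log2 fold change -0.51, SE 0.29, adjusted p = 0.277). Tlr3 did so too, at 11.4, 3.99 and 2.41 CPM (log2 fold change -1.01, SE 0.51, adjusted p = 0.225).

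Dhx58 differed less, with 111, 98.7 and 86.6 CPM in CM plus DTM and a log2 fold change of -0.25 (SE 0.17, adjusted p = 0.369). Tlr7 had 67.8, 70.6 and 59.1 CPM, close to the lower CM libraries, and a log2 fold change of -0.72 (SE 0.37, adjusted p = 0.230) that was -0.10 without library 2 of CM. Mavs had 54.3, 61.2 and 54.8 CPM and a log2 fold change of -0.13 (SE 0.13, adjusted p = 0.543).

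Without library 1 of CM and library 1 of CM plus DTM, 5 of the 9 genes were lower with DTM than in CM alone at an adjusted p under 0.05, where 3.17% of all genes were. They were Ifih1 at -0.91 (adjusted p = 0.0428), Zbp1 at -1.21 (adjusted p = 0.0335), Tlr3 at -1.79 (adjusted p = 0.0322), Tlr9 at -1.57 (adjusted p = 0.0473) and Tlr13 at -0.78 (adjusted p = 0.0410). Eif2ak2 was at -1.26 (adjusted p = 0.0508) and Dhx58 at -0.50 (adjusted p = 0.0876). That fit compares 2 libraries with 2, and which library stands for its group was not tested. Library 1 of CM plus DTM also had the highest summed CPM of 13 mitochondrially encoded transcripts (20043, against 11320 and 13915 in the others of its group) and of 10 neutrophil markers (1357, against 667 and 495). Library 1 of CM likewise had the highest mitochondrial sum of its group (17328, against 11937 and 12961). The neutrophil markers did not move together. Mmp8 rose in CM (log2 fold change 3.74, SE 0.39), where the median of the list was -1.26. In library 1 of CM, Mmp8 made up 355 of the sum of 357 CPM. Ngp, Camp, Ltf, Elane, Retnlg and Ly6g, named here after their values were seen, had 0 counts in that library. Library 1 of CM had the lowest sum of 10 mesenchymal and osteosarcoma markers (161, against 755 and 792). That sum was 831 to 1225.5 CPM in control and 838 to 981 CPM in CM plus DTM, above every CM library. The part of these in the results was not tested.

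**Figure D3:**
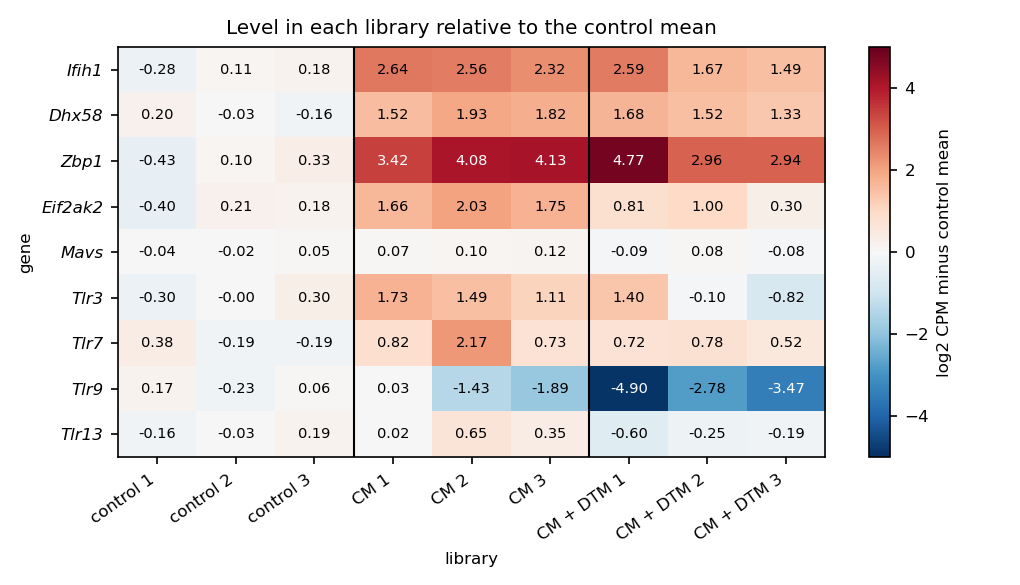
Level of each gene (rows) in each of the 9 libraries (columns) as log2 CPM minus the mean of the control libraries, printed in the cells and coloured from blue (below control) to red (above). In CM plus DTM, Zbp1 reads 4.77 in library 1 and 2.96 and 2.94 in the others, and Tlr9 reads -4.90, -2.78 and -3.47.

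Set against control, CM plus DTM had 3 sensor genes higher and Tlr9 lower. Of the 9 genes 3 rose (33.3%) and 1 fell (11.1%), where 1.5% of all genes rose and 0.946% fell. The groups were apart for 7 of the 9 (77.8%), against 34.5% of all genes. This comparison shares its libraries with the other comparisons, so it adds no independent evidence to them. Ifih1 rose by 1.99 (SE 0.30, adjusted p = 0.0177), Dhx58 by 1.51 (SE 0.18, adjusted p = 0.0086) and Zbp1 by 3.81 (SE 0.54, adjusted p = 0.0145) on the log2 scale. Zbp1 was at 2.90 without library 1 of CM plus DTM. Eif2ak2 was above control in all 3 libraries, but its log2 fold change of 0.71 (SE 0.25) was not called (adjusted p = 0.134).

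Tlr9 fell from 4.49 ± 0.627 to 0.362 ± 0.252 CPM, a log2 fold change of -3.605 (SE 0.68, adjusted p = 0.0324). Every library with DTM was below every control library. The call was lost without any 1 of the control libraries (adjusted p = 0.111, 0.105 and 0.115), without library 2 or library 3 of CM (0.0588 and 0.0515) and without library 3 of CM plus DTM (0.113), while the log2 fold change stayed between -4.19 and -3.21 over the alternatives. The calls of Ifih1 and Zbp1 were likewise lost without any 1 of the control libraries (adjusted p of 0.0735 to 0.0929 and of 0.0679 to 0.0856), and that of Dhx58 without library 2 of control (0.0639). In the fit of control and CM plus DTM alone, the call of Ifih1 was also lost (adjusted p = 0.0583), and Zbp1 and Tlr9 lay just under the threshold (adjusted p = 0.04998 each). B cell markers summed to 3.46 to 4.99 CPM in CM plus DTM and plasmacytoid dendritic cell markers to 9.55 to 15.7 CPM, and their part in the level of Tlr9 was not tested. Tlr7 (log2 fold change 0.65, adjusted p = 0.308) and Tlr13 (-0.34, adjusted p = 0.320) were apart from control without being called. Tlr3 was at 0.45 (adjusted p = 0.622) and at -0.46 without library 1 of CM plus DTM, and Mavs was at -0.03 (adjusted p = 0.908) and at 0.01 without library 3 of CM plus DTM. Without library 1 of CM and library 1 of CM plus DTM, the count was again 3 higher and 1 lower, where 4.07% of all genes rose and 4.32% fell, with Tlr9 at -3.21 (adjusted p = 0.00226).

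Levels can be compared between genes only per length, here as CPM per kb of the longest transcript in GENCODE vM21 (GRCm38). In control the order of mean levels was Tlr13 (75.2 ± 9.38 CPM per kb), Mavs (19.0 ± 0.622), Dhx58 (14.4 ± 1.84), Tlr7 (10.8 ± 2.61), Eif2ak2 (2.46 ± 0.543), Zbp1 (2.04 ± 0.524), Ifih1 (1.59 ± 0.260), Tlr9 (1.29 ± 0.180) and Tlr3 (0.985 ± 0.209). The ranges of Dhx58 and Tlr7 overlapped, as did each neighbouring pair from Eif2ak2 down to Tlr3. In CM the order was Tlr13 (96.1 ± 20.6), Dhx58 (48.7 ± 6.86), Zbp1 (30.2 ± 7.58), Tlr7 (27.9 ± 17.0), Mavs (20.3 ± 0.368), Ifih1 (8.99 ± 1.002), Eif2ak2 (8.59 ± 1.16), Tlr3 (2.69 ± 0.566) and Tlr9 (0.707 ± 0.529). There Tlr7 overlapped with Dhx58, Zbp1 and Mavs, and Ifih1 with Eif2ak2. With DTM the order was Tlr13 (59.3 ± 8.62), Dhx58 (40.9 ± 4.97), Zbp1 (28.6 ± 22.7), Mavs (18.6 ± 1.26), Tlr7 (16.9 ± 1.53), Ifih1 (6.31 ± 2.77), Eif2ak2 (4.02 ± 0.946), Tlr3 (1.34 ± 1.08) and Tlr9 (0.104 ± 0.0725). There the range of Zbp1 overlapped with those of Tlr13, Dhx58, Mavs and Tlr7, and the ranges of Mavs and Tlr7 and of Ifih1 and Eif2ak2 overlapped. By mean, Tlr13 led in each group, and Dhx58 and Zbp1 were below Mavs in control and above it in the other groups. For Zbp1 in CM plus DTM this rested on library 1 alone, at 54.75 CPM per kb. Its libraries 2 and 3 lay below every Mavs library of that group, whose lowest value was 17.77 CPM per kb.

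For each of the 9, the genes with the most similar profile were sought among 9402 genes whose mean was 5 CPM or more, by Pearson's r of log2 CPM over the 9 libraries. These values describe libraries that share 3 treatments. Dhx58 was closest to Irf7 (r = 0.996), Oas3 (0.993) and Litaf (0.992), and Zbp1 to Phf11d (0.998), Slfn1 (0.997) and Ifit3 (0.997). Ifih1 was closest to Anxa4 (0.995), Egr2 (0.991) and H2-T22 (0.991), and Eif2ak2 to Mxd1 (0.990), Arsg (0.977) and Parp14 (0.974). Among the receptors, Tlr9 was closest to Ercc4 (0.994), Tlr13 to Arfgef2 (0.967), Tlr3 to Klf7 (0.954) and Tlr7 to Ptges (0.936), while Mavs was closest to Mib1 (0.964). Within the 9, r was 0.946 to 0.976 between Ifih1, Dhx58 and Zbp1 and 0.798 to 0.871 between these and Eif2ak2.

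Most of the other cytosolic sensors and cofactors rose in CM as well. Of 11 tested, 7 rose and none fell, where 4.04% of all genes rose and 1.57% fell, and the median log2 fold change was 1.04. Without library 1 of CM and library 1 of CM plus DTM, 1 of the 11 fell, where 6.41% of all genes did. Ddx58, which encodes the RNA helicase RIG-I, stood at 23.4, 31.97 and 35.5 CPM in control and at 149, 187 and 181 CPM in CM (log2 fold change 2.505, SE 0.26, adjusted p = 0.00173). Ddx60, a helicase that assists RIG-I, rose by 3.52 (SE 0.43), Trex1, a DNA exonuclease that degrades cytosolic DNA, by 2.72 (SE 0.36), and Trim25, the ubiquitin ligase of RIG-I, by 1.33 (SE 0.15). Leaving out 1 library left 5 to 7 called. With DTM against control 1.5% of all genes rose, and 4 of the 11 did. These were Trex1 (3.15), Ddx60 (2.52), Ddx58 (2.09) and Samhd1 (0.79), a nucleotide hydrolase. Without library 1, 2 or 3 of control 1, 0 and 2 of the 11 were called.

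Between MAVS and the interferon genes, 5 of 15 tested genes of MAVS signalling and its inhibitors rose in CM, against 4.04% of all genes. Their median was 0.28. Irf7, a transcription factor of type I interferon genes, went from 24.0, 16.8 and 15.2 CPM to 228, 571 and 616 CPM (log2 fold change 4.66, SE 0.42, adjusted p = 0.000894). Tank (1.30) and Azi2 (1.16), adaptors of the kinase TBK1, and Tnfaip3 (0.95), an inhibitor, also rose. Without library 2 of control only 1 of the list was called, and without library 1 or library 3 of control, or library 2 of CM, 2 were. With DTM against control Irf7 rose, to 299 ± 73.0 CPM, and so did Tnfaip3, by 1.31 on the log2 scale, with 1 to 3 of the list higher when 1 library was left out. Of 7 tested genes of type I interferon signalling, 3 rose in CM, against 4.04% of all genes. Among the 3 were Stat2 (2.58) and Irf9 (0.70), which encode transcription factors of the interferon response. None was called without any 1 of the control libraries or without library 2 of CM, and 1 without library 3 of CM. Against control with DTM edgeR called Tyk2, a kinase of the interferon receptor, at -0.73, and no other of the 7. In that comparison 0.946% of all genes fell. DESeq2 called 2 higher and 1 lower, and edgeR called 1 higher without library 3 of CM plus DTM. DESeq2 called far more of all genes than edgeR there, so its count is not read as a trait of the list. Tyk2 was not called without any 1 of the control libraries, library 2 or 3 of CM, or library 3 of CM plus DTM. Of the type I interferon genes themselves, only Ifna1, Ifna2, Ifna4, Ifna5 and Ifnb1 were looked up, and these were barely read. The Ifna genes among them had 0 counts in all 9 libraries, where 3 counts correspond to 0.0525 to 0.0812 CPM, and Ifnb1 had at most 4.

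Downstream of ZBP1 and PKR, 2 of 9 genes rose in CM, against 4.04% of all genes, and the median of the 9 was 0.34. Mlkl, the executor of necroptosis, rose by 1.69 (SE 0.32, adjusted p = 0.0172). Ddit3, a stress transcription factor downstream of eIF2α phosphorylation, rose by 2.86 (SE 0.63, adjusted p = 0.0336), with 203 CPM in library 1 of CM and 41.1 and 44.2 CPM in the others, against 12.7 to 14.5 CPM in control. Neither was called without any 1 of the control libraries, and 1 was without library 2 or 3 of CM or library 3 of CM plus DTM. With DTM against control edgeR called none of these 9, where 1.5% of all genes rose and 0.946% fell. At an unadjusted p under 0.05 stood 2, and DESeq2 called 1. DESeq2 also called far more of all genes than edgeR in that comparison, so these counts are not read as a trait of the list.

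On the endosomal side, 4 of 16 genes for TLR chaperones, cleavage and ligand handling rose in CM, against 4.04% of all genes. The median of the 16 was 0.34. Slc15a3, a transporter of the endolysosome, rose by 1.71 (SE 0.23), Pld3, a nucleic acid exonuclease, by 1.35 (SE 0.24), Ctsl, a protease that cleaves endosomal TLRs, by 1.30 (SE 0.31), and Hsp90b1, a chaperone of TLRs, by 1.05 (SE 0.22). Without any 1 of the control libraries 1 of these 16 was called, and without library 2 or 3 of CM 2 were. Without both library 1 of CM and library 1 of CM plus DTM 7 were called, where 9.62% of all genes rose and 6.41% fell. Unc93b1, which carries endosomal TLRs to their compartment and is named here after its values were seen, was at 0.23 (adjusted p = 0.727). Against control with DTM, Slc15a3 rose by 1.16, and each fit with 1 library left out called 0 or 2 of the list.

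None of 12 TLR adaptors and kinases was called by edgeR in any comparison, with medians of 0.01 in CM, -0.40 with DTM against CM and -0.21 with DTM against control. At an unadjusted p under 0.05 stood 1, 3 and 3 of them, and DESeq2 called 0, 3 and 2. With DTM against CM, 28.3% of all genes had such a p, and DESeq2 called 8.69% lower and 9.64% higher. Shares at an unadjusted p are not given here for the other comparisons, and DESeq2 called more of all genes than edgeR in each. These counts are therefore not read as a trait of the list. With 1 library left out, edgeR called 1 higher in CM (without library 1 of CM plus DTM), and without library 2 of CM plus DTM it called 3 lower against CM and 2 lower against control. The most abundant were Pik3ap1, at 317 ± 67.9, 215 ± 41.2 and 93.3 ± 81.5 CPM in control, CM and CM plus DTM, and Irf5, at 158 ± 10.5, 143 ± 43.3 and 99.7 ± 48.9 CPM. None of the 6 tested genes of the other Toll-like receptors was called by edgeR either. Among them 1, 1 and 0 had an unadjusted p under 0.05, and DESeq2 called 1, 1 and 0. The same shares of all genes and the same limit apply to these counts. With 1 library left out, edgeR called 1 higher in CM (without library 1 of CM plus DTM) and 1 lower with DTM against CM (without library 2 of CM plus DTM). Tlr2 had 78.0 ± 15.8, 59.3 ± 20.7 and 63.9 ± 15.8 CPM in the same order. Tlr8, an endosomal relative of Tlr7 that was chosen after its values were seen, had 14.2, 21.4 and 21.0 CPM in control, 59.3, 58.4 and 46.2 CPM in CM and 3.41, 22.7 and 11.6 CPM in CM plus DTM. Its CM libraries were above all others, without a call against control (adjusted p = 0.136) or with DTM against CM (adjusted p = 0.0634).

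With DTM against CM, edgeR called no gene of these 7 lists. All 7 medians were below 0, from -0.40 for the TLR adaptors and kinases to -0.06 for the other Toll-like receptors. The median of all genes was -0.03, so that of the other Toll-like receptors was close to it. Unadjusted p-values under 0.05 were found for 4 of the 11 other cytosolic sensors, 6 of the 15 genes of MAVS signalling, 7 of the 16 genes of TLR handling, 2 of the 9 downstream genes and 3 of the 7 interferon signalling genes, where 28.3% of all genes had one. DESeq2 called 1, 5, 2, 1 and 2 genes of these lists lower, in the same order, and 1, 1, 0, 1 and 0 higher, where it called 8.69% of all genes lower and 9.64% higher. Without library 2 of CM plus DTM, edgeR called 1 higher and 1 lower among the other cytosolic sensors, 1 higher and 2 lower in MAVS signalling and 2 lower in interferon signalling, and the median of the other Toll-like receptors was 0.06. Among the most abundant genes, Trim25 went from 353 ± 26.4 to 195 ± 22.7 CPM (log2 fold change -0.85, SE 0.15, adjusted p = 0.0611), and Pcbp2, which promotes the breakdown of MAVS, from 384 ± 15.6 to 613 ± 105.6 CPM (0.68, SE 0.17, adjusted p = 0.0615).

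**Figure D4:**
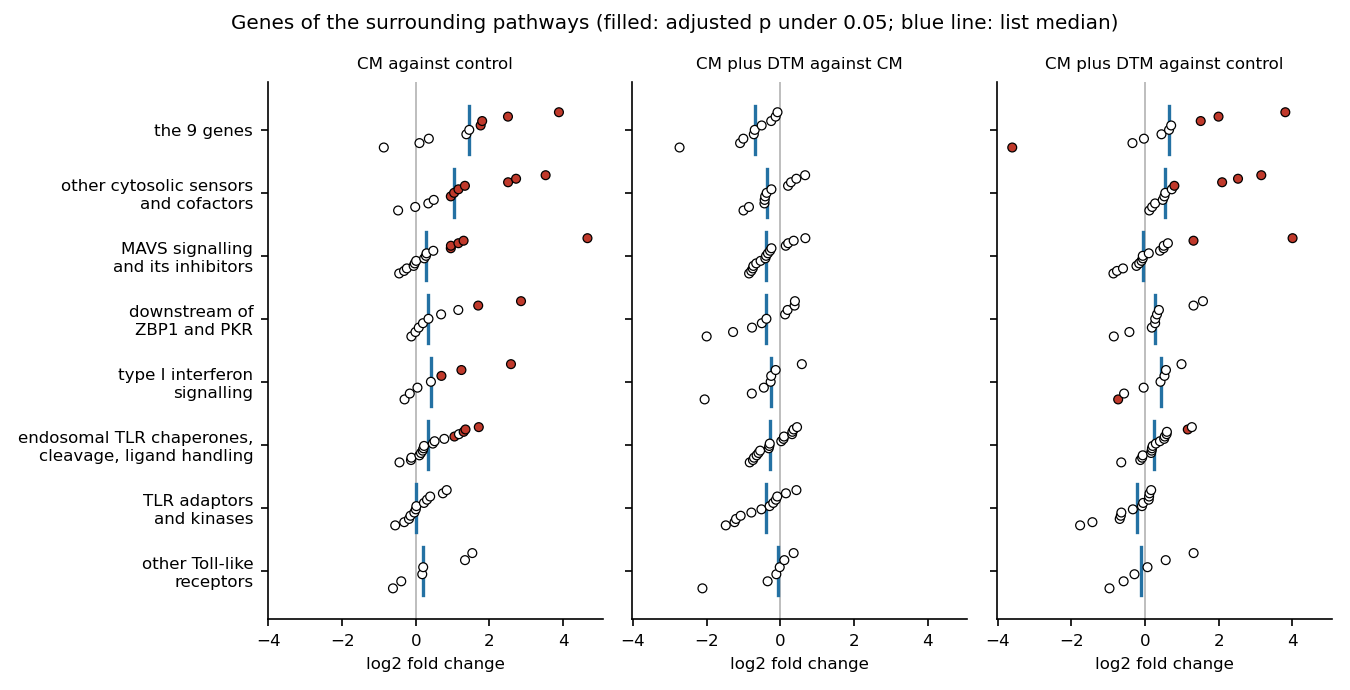
Log2 fold change (horizontal axis) of the 9 genes and of each tested gene in 7 lists of the surrounding pathways (rows) in the 3 comparisons; filled points have an adjusted p under 0.05 and the blue line is the median of the list. In CM against control the other cytosolic sensors hold 7 filled points of 11 and the TLR adaptors and kinases none of 12.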

How the data were processed

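RNA isolated with TRIzol was made into mRNA libraries and, per the labels' protocols, read on the DNBSEQ-T7 platform. The authors deposited raw read counts per gene symbol, and, per the submitters' processing notes, which list names without roles, used HISAT2 2.1.0, Trimmomatic 0.36, DESeq2 1.12.4, FastQC 0.11.2 and the builds mm39 and GRCh38. Counting program, annotation and strandedness are not given in the sources used here; hence reads of overlapping genes on opposite strands cannot be told apart.

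From these counts, genes were kept by filterByExpr, scaled by TMM and tested with edgeR 4.0.16 (glmQLFit, glmQLFTest; R 4.3.3) in 1 fit of all 9 libraries by group, with Benjamini-Hochberg adjustment over 15429 genes and a threshold of 0.05. The SE is the size of the fold change divided by the square root of F. Log2 CPM used a prior count of 2. No libraries were copies of each other. The test was tried on simulated counts, where the check asked only that mean fold changes came back near the simulated sizes. Recovered and false calls of that trial are not reported here. Alternatives were DESeq2 1.42.0, limma-voom (limma 3.58.1), other scalings and filters, fits of 2 groups, the replicate number as a block and libraries left out.

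The 9 genes and all lists were chosen with earlier results of these data known. From each list, up to 4 called genes with the largest fold change could be named, if their mean reached 1 CPM, or, with none called, up to 2 of the most abundant; similar profiles were limited to 3 genes each. With 3 libraries a group, the smallest p of an exact permutation test is 0.1, so none was used. Some genes of the lists are counted but not reported here by name.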

Additional observations from a re-analysis of the deposited data

How the results depend on the processing

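Over 19 alternatives in each comparison, the 4 sensor genes stayed called in CM against control. The number of the 9 genes called there went from 4 to 8 without library 1 of CM and library 1 of CM plus DTM, and was 4 to 5 with 1 library left out. For CM plus DTM against CM it went from 0 to 3 with DESeq2 and to 5 without both libraries (0 to 2 with 1 left out), and against control it was 0 to 4 with 1 left out. The number of all genes called in CM against control was 865, with 1937 by DESeq2, 1360 in the compared groups only, 2503 without both libraries and 256 to 1884 with 1 left out. Total count scaling gave 415 higher and 464 lower in place of 623 and 242. For CM plus DTM against CM it was 0, with 2828 by DESeq2, 6 with legacy = FALSE, 1 with total count scaling, 1 in the compared groups only, 776 without both libraries and 0 to 1876 with 1 left out (the highest without library 2 of CM plus DTM). Against control it was 378 (232 higher, 146 lower), with 1981 by DESeq2, 118 in the compared groups only, 1311 without both libraries and 15 to 1766 with 1 left out; total count scaling gave 176 higher and 273 lower and moved the median of all genes from 0.01 to -0.24. The causes were not tested.

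Directions turned for Mavs in CM against control with total count scaling (-0.10) and in CM plus DTM against control without library 3 of CM plus DTM (0.013, with -0.071 to 0.013 as the range with 1 library left out). They also turned for Zbp1 in CM plus DTM against CM (0.021 and 0.059 without library 2 or 3 of CM, 0.229 and 0.240 without library 2 or 3 of CM plus DTM, and -1.013 without its library 1) and for Tlr3 in CM plus DTM against control (-0.457 without library 1 of CM plus DTM, alone or with library 1 of CM, and 0.843 without its library 3). In deviations of log2 CPM from the group mean, same-numbered libraries of control and CM correlated at -0.044 to 0.038, and differently numbered ones at -0.087 to 0.07. Between CM and CM plus DTM the values were 0.097 to 0.142 against -0.144 to 0.076. Between control and CM plus DTM they were 0.053 to 0.297 against -0.268 to 0.219. Same-numbered libraries of CM and CM plus DTM were thus the more alike. The main fit took all libraries as unpaired, and whether the numbers mark pairs was not tested. With the replicate block, 149 genes were called in CM plus DTM against control, and Tlr9 there had an adjusted p of 0.0757; no other of the 9 changed its call. Depth limits Tlr9 most, with 4 to 29 counts per library in CM plus DTM.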
